A study of Mus musculus with 12 samples.

Results

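Wt1 and 9 genes known from the mesothelium were followed in TM3 and TM4 cells, mouse lines of testis origin. The 10 members are Wt1, Bnc1, Upk3b, Upk1b, Msln, Muc16, Lrrn4, Nkain4, Krt7 and Krt19, taken by gene name from a table of 55004 genes. They were chosen by their levels in the lines, most of them high in TM3 and absent in TM4. The levels in the lines are therefore given as a description, without a test. All 10 members were among the 15700 genes that passed the filter on low counts, in most cases through TM3 alone. The rule for the choice names no response to treatment, so the responses were tested.

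TM3 is labelled as a Leydig cell line and TM4 as a Sertoli cell line. In the testis, the former cell type secretes testosterone and the latter nurses the germ cells. Each line was treated for 72 h with 100 uM MEHP or, as the control, with 0.1% DMSO. MEHP is the monoester formed in the body from the plasticizer DEHP. A DMSO level was recorded here for the control groups only. There were 4 groups of 3 libraries of polyadenylated RNA, named here by line and treatment. No genetic change, age or animal is given for any group, and the medium with bovine and horse serum was common to all. Each line is an established culture, so differences between TM3 and TM4 are between 2 lines and not between cell types of the testis. Separate cultures are not stated for the replicates, and the spread between them may be technical. Some labels call the lines rat, but the stated organism is mouse, as are the identifiers of the genes.

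The mesothelium is the flat epithelium that lines the body cavities and covers the organs in them, the testis included. Its cells combine epithelial features, such as keratins and an apical surface rich in glycoproteins, with features of mesenchyme. In the embryo the coelomic epithelium, its forerunner, gives rise to part of the gonad. The zinc finger transcription factor WT1 marks this epithelium, is needed to form the gonad and the kidney, and stays on in Sertoli cells of the adult testis. Mesothelin, the product of Msln, is an anchored surface glycoprotein that binds the large mucin MUC16. Uroplakins are membrane proteins first known from the bladder lining. UPK1B belongs to the tetraspanins, and UPK3B is a single-pass partner protein found in mesothelium.

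Promoter windows of 4 members are printed because they span the range of CG dinucleotides among the members for which RefSeq gave a promoter (GRCm38.p6). Capitals mark each CG, and each window is the 250 bases before the annotated start, 5′ to 3′ on the strand of the gene. The Upk3b window is chr5:136038246-136038495 on the plus strand. The Lrrn4 window is chr2:132880863-132881112, the Muc16 window chr9:18674604-18674853 and the Bnc1 window chr7:81992300-81992549, all on the minus strand.
Upk3b: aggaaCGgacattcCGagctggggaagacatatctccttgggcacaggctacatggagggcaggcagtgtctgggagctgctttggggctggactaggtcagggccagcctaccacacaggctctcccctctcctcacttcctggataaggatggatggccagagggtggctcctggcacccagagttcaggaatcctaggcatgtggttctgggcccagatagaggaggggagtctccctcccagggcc
Lrrn4: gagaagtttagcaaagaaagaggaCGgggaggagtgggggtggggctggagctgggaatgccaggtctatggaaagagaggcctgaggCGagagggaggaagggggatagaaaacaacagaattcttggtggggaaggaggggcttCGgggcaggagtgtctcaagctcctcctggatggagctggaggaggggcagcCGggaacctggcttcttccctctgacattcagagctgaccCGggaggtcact
Muc16: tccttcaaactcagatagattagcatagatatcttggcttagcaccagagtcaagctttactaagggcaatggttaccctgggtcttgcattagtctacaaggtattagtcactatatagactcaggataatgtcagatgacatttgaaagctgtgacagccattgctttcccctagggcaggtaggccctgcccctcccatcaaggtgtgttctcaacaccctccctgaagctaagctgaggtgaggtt
Bnc1: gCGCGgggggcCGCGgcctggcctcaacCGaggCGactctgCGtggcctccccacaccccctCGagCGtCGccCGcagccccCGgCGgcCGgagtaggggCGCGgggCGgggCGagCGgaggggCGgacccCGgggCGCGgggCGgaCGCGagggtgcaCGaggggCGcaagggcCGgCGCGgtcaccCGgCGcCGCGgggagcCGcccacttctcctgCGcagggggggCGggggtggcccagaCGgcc
The Muc16 window held 0 CG dinucleotides, that of Upk3b 2, that of Lrrn4 5 and that of Bnc1 39, against a median of 6 over 32851 promoters. The GC content was 46.4%, 60.8%, 59.2% and 83.6% in the same order, against a median of 52.4%. In the Krt7 window there were 16 CG dinucleotides at a GC content of 66.0%, but that start lies 1360 bases inside the gene as the count table gives it.

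The windows of those 5 members were also searched on both strands for short motifs, where a match is a run of letters and not a site. The letters GGAATG, bound by TEAD factors, stood at position -241 in Upk3b and -196 in Lrrn4, and 12.6% of all promoters held them. The GC box, GGGCGG, occurred 5 times in Bnc1 and 4 times in Krt7, and 32.7% of all promoters held it. The letters GCGNGGGNG, shared by the binding motifs of WT1 and EGR1, occurred 3 times in Bnc1, and 10.5% of promoters held them. The match at -21 overlapped a GC box at -23. An E box, CANNTG, stood in the windows of Upk3b, Muc16 and Krt7, against 66.2% of promoters. None of the 5 windows held the AP-1 letters TGANTCA, the CCAAT box, the TATA box TATAAA or a pair of PPAR half-sites, against 6.75%, 33.8%, 12.4% and 0.338% of all promoters.

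MEHP changed 5 of the 10 members in TM3. The glycoprotein gene Lrrn4, the membrane protein gene Nkain4 and both uroplakin genes fell, and Msln rose. Wt1 itself, Bnc1, Muc16 and both keratin genes did not pass the test. Over all genes tested 7.43% fell and 9.04% rose in TM3 (edgeR quasi-likelihood test, Benjamini-Hochberg adjusted p under 0.05), 16.5% together. Most members were chosen for high levels in TM3, and a change of a given size passes more readily at high counts. The shares over all genes include genes of few counts and were not matched to the members by level. In TM4, 3 members had enough counts to follow, and all 3 fell. These were Msln, Bnc1 and Krt7, against 15.0% of all genes that fell and 15.9% that rose there. Their responses in the lines differed from each other, in Msln by direction.

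Library totals lay between 15771908 and 18203115 counts. Levels are given as CPM (counts scaled to the library total after TMM normalization), with SD over n = 3. A count of 0 allowed up to 0.165 to 0.190 CPM in a library, taken as 3 counts, which like all counting intervals here covers counting error only. Every pair of replicates differed by more than sampling noise (chi-square of 2.37 to 10.95 per degree of freedom). In whole cultures, fewer cells that make a transcript cannot be told apart from less of it per cell.

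Wt1 (ENSMUSG00000016458, chromosome 2, 105126529 to 105173616, plus strand, mm10) had 164, 163 and 175 CPM in the TM3 DMSO libraries. With MEHP it had 171, 167 and 169 CPM. In TM4 the libraries held 1, 3 and 0 counts with DMSO and 0, 1 and 2 with MEHP. The transcript was thus plain in every TM3 library and at the limit of detection in every TM4 library. Summed over the DMSO libraries, TM3 had 8336 counts and TM4 had 4, a ratio of 2060 after scaling for depth (95% exact interval 804 to 7563). The MEHP and DMSO libraries of TM3 overlapped, and the log2 fold change was 0.02 ± 0.06 (SE; edgeR adjusted p = 0.909). The count is 1 value per gene, so WT1 isoforms could not be compared.

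Wt1os, a noncoding RNA gene on the opposite strand, starts 19 bases before the start of Wt1 and runs away from it. It had 9.66 ± 1.06 CPM in TM3 DMSO, 8.66 ± 0.289 in TM3 MEHP and 0 counts in every TM4 library. Both genes were therefore detected in TM3 and at or near 0 in TM4. Whether the counting used strand is not given in the sources used here. The annotated genes do not overlap, but reads near their adjoining starts could not be assigned by strand without it.

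Bnc1 (ENSMUSG00000025105, chromosome 7, 81966672 to 81992292, minus strand) codes for basonuclin 1, a zinc finger protein known from the basal layer of stratified epithelia and from germ cells. It had 553, 561 and 545 CPM in TM3 DMSO and 552, 538 and 537 in TM3 MEHP. The TM4 libraries had 99.2, 103 and 92.8 CPM with DMSO and 72.7, 78.9 and 68.1 with MEHP. Bnc1 was thus present in both lines, at 5.62 times the TM4 level in TM3 under DMSO (exact interval 5.45 to 5.79) and 7.40 times under MEHP. The TM3 groups overlapped (log2 fold change -0.03 ± 0.05, edgeR adjusted p = 0.781). In TM4 every MEHP library was below every DMSO library (-0.43 ± 0.06, edgeR adjusted p = 1.03e-06). A pseudogene on the other strand, 4833418N17Rik, overlaps 291 bases of Bnc1 and had at most 53 counts in a library.

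Upk3b (ENSMUSG00000042985, chromosome 5, 136038496 to 136046487, plus strand), whose window is printed above, was the member with the highest level per length in TM3. The TM3 DMSO libraries had 1115, 1071 and 1101 CPM and the TM3 MEHP libraries 909, 880 and 887. TM4 held 1, 5 and 0 counts with DMSO and 2, 2 and 0 with MEHP. All TM3 MEHP libraries were below all TM3 DMSO libraries, and no TM4 library was above 5 counts. Upk3b fell by 18.6% in TM3 (log2 fold change -0.30 ± 0.06, edgeR adjusted p = 0.000532). The ratio of TM3 to TM4 under DMSO was 9012 in summed counts (exact interval 4140 to 24558).

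Upk1b (ENSMUSG00000049436, chromosome 16, 38773184 to 38800328, minus strand) had 257, 242 and 247 CPM in TM3 DMSO. With MEHP the TM3 libraries had 200, 197 and 204 CPM. The TM4 libraries held 1, 0 and 0 counts with DMSO and 0, 2 and 0 with MEHP. The TM3 groups did not overlap, and TM4 was at the limit of detection. Upk1b fell by 19.4% (-0.31 ± 0.06, edgeR adjusted p = 0.000183), close in size to Upk3b. Its DMSO ratio between the lines was 12279, with an exact interval of 2203 to 485025 that rests on 1 count in TM4.

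Msln (ENSMUSG00000063011, chromosome 17, 25748614 to 25754327, minus strand) ran against the description of the set, since TM4 had more of it than TM3. The TM3 libraries had 193, 187 and 190 CPM with DMSO and 235, 241 and 238 with MEHP. The TM4 libraries had 334, 378 and 382 CPM with DMSO and 272, 302 and 287 with MEHP. The 4 groups did not overlap, with every TM4 library above every TM3 library. In TM3 Msln rose by 25.6% (0.33 ± 0.05, edgeR adjusted p = 5.15e-05), the 1 rise among the members. In TM4 it fell by 21.3% (-0.35 ± 0.05, edgeR adjusted p = 9.40e-06). The TM4 level was 1.93 times that of TM3 under DMSO and 1.21 times under MEHP.

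Muc16 (ENSMUSG00000109564, chromosome 9, 18495455 to 18674530, minus strand), codes for the mucin that mesothelin binds. It had 28.3, 38.2 and 28.6 CPM in TM3 DMSO and 33.4, 29.3 and 28.3 in TM3 MEHP. No TM4 library held a count. TM3 DMSO was at least 173-fold higher than TM4, taken against 3 counts per library. The TM3 groups overlapped, with 1 DMSO library above all others, and the log2 fold change was -0.07 ± 0.11 (edgeR adjusted p = 0.766). TM4, with the most Msln, thus had no count of Muc16.

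Lrrn4 (ENSMUSG00000043110, chromosome 2, 132868305 to 132880891, minus strand) codes for a membrane protein with leucine-rich repeats. It had 202, 233 and 223 CPM in TM3 DMSO and 154, 153 and 151 in TM3 MEHP. TM4 held 2, 4 and 2 counts with DMSO and 4, 5 and 3 with MEHP. The TM3 groups did not overlap, and TM4 stayed near the limit of 3 counts. Lrrn4 fell by 30.5% in TM3 (-0.53 ± 0.06, edgeR adjusted p = 4.13e-08), the greatest change among the 5 members that passed. Its DMSO ratio between the lines was 1358 (exact interval 689 to 3146).

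Nkain4 (ENSMUSG00000027574, chromosome 2, 180934772 to 180954699, minus strand) belongs to a family of membrane proteins named for binding the sodium pump. It had 57.7, 55.4 and 51.0 CPM in TM3 DMSO and 38.4, 43.1 and 41.4 in TM3 MEHP. No TM4 library held a count, and TM3 DMSO was at least 299-fold higher against 3 counts per library. The TM3 groups did not overlap. Nkain4 fell by 25.1% (-0.42 ± 0.08, edgeR adjusted p = 0.000523).

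Krt7 (ENSMUSG00000023039, chromosome 15, 101411043 to 101430313, plus strand) codes for a keratin of simple epithelia and mesothelium. The TM3 libraries had 194, 182 and 187 CPM with DMSO and 184, 191 and 185 with MEHP. TM4 had 24, 20 and 42 counts with DMSO and 11, 13 and 12 with MEHP. Krt7 was thus low but measurable in TM4, at a DMSO ratio between the lines of 108 (exact interval 87.1 to 135). The TM3 groups overlapped (-0.01 ± 0.06, edgeR adjusted p = 0.972). In TM4 every MEHP library was below every DMSO library, 0.685 ± 0.0313 against 1.77 ± 0.792 CPM (-1.34 ± 0.27, edgeR adjusted p = 0.000277). Without the TM4 DMSO library of 42 counts the log2 fold change was -0.93 (edgeR adjusted p = 0.0184). The antisense gene Gm671 overlaps Krt7 over 1269 bases and had at most 56 counts in a library.

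Krt19 (ENSMUSG00000020911, chromosome 11, 100140810 to 100148665, minus strand) codes for a keratin that pairs with those of simple epithelia. It had 5.09, 5.28 and 4.05 CPM in TM3 DMSO and 6.55, 5.26 and 7.31 in TM3 MEHP. No TM4 library held a count, and TM3 DMSO was at least 26.3-fold higher against 3 counts per library. The TM3 treatments overlapped by 1 library, and the log2 fold change of 0.40 ± 0.20 did not pass (edgeR adjusted p = 0.198).

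**Figure D1:**
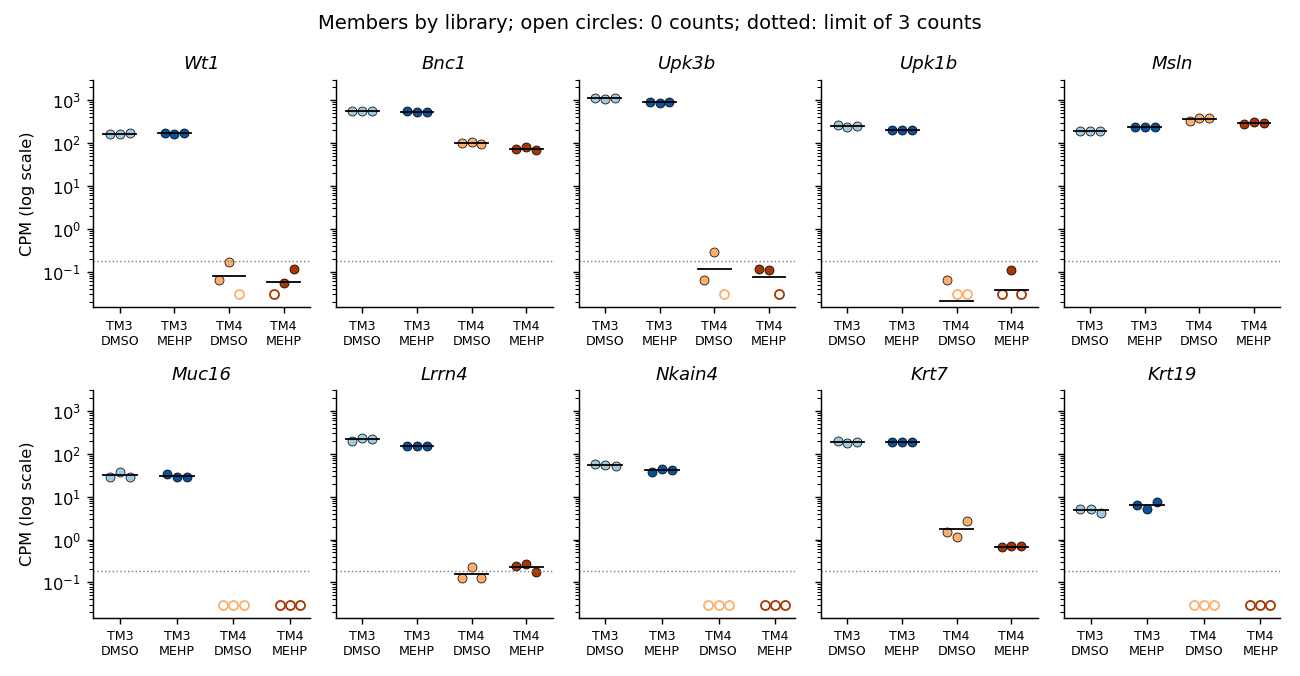
CPM of each member on a log scale in the 12 libraries, 3 points a group with a bar at the mean; open circles are libraries with 0 counts and the dotted line is the limit of 3 counts. In 7 panels the TM4 points lie at or near that limit, while Msln is higher in TM4 and Bnc1 is present in both lines.

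In TM4, 7 members therefore had at most 5 counts in any library. Muc16, Krt19 and Nkain4 had no count there, while Lrrn4 had 2 to 5 counts in every TM4 library. Of these, Krt19 and Muc16 were not high in TM3, at the percentiles 37.6 and 26.3 of all genes tested by level per length in TM3 DMSO. Krt7 was low in TM4, Bnc1 was present in both lines and Msln was higher in TM4. In mean level 9 of the 10 were higher in TM3 under DMSO, a direction the choice of members used, beside 42.0% of all genes higher and 40.0% lower (82.0% together). Over all genes tested, 390 (2.48%) had at least 2 CPM in TM3 DMSO and at most 3 counts in every TM4 DMSO library, 5 of the members among them. The reverse pattern was met by 199 genes (1.27%).

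Compared per length, as FPKM (CPM per kilobase of the gene model in the authors' table), the members spanned a wide range in TM3 DMSO. Upk3b led at 310 ± 6.36 FPKM. Upk1b at 119 ± 3.77 and Bnc1 at 119 ± 1.71 came next and overlapped. Msln at 89.8 ± 1.36, Lrrn4 at 59.1 ± 4.26 and Nkain4 at 44.2 ± 2.73 followed, each apart from its neighbours in the order. Wt1 at 27.0 ± 1.14 and Krt7 at 26.6 ± 0.893 overlapped, and Krt19 at 2.59 ± 0.357 and Muc16 at 1.2 ± 0.213 were lowest. Under MEHP the order of FPKM values changed in the upper part, with Bnc1 at 117 and Msln at 113 now above Upk1b at 96.0. In TM4 DMSO the order was Msln at 173 ± 12.8, Bnc1 at 21.2 ± 1.12 and Krt7 at 0.250 ± 0.112 FPKM. The gene model of Msln in the table is 2114 bases long, against 3064 in the exons of GENCODE M21, so its FPKM depends on the model.

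**Figure D2:**
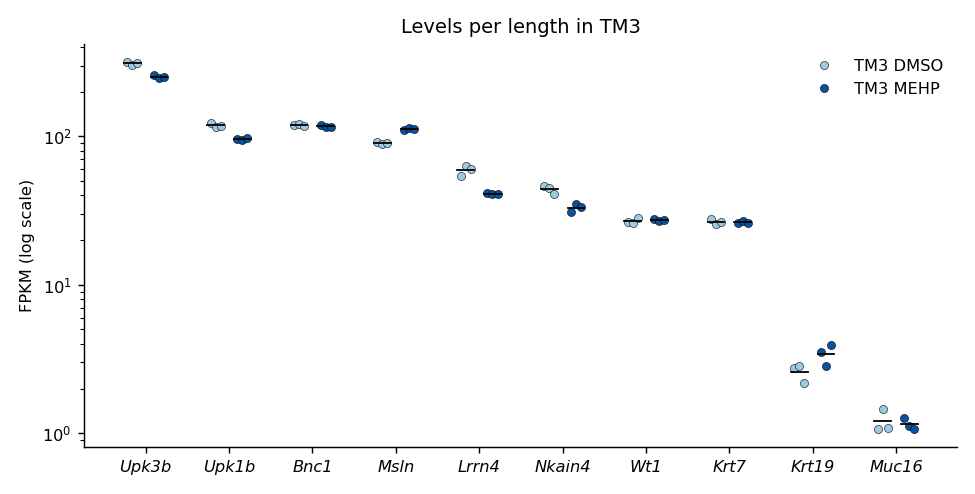
Level per length (FPKM, log scale) of the members in the TM3 libraries, ordered by the DMSO mean; points are the 3 libraries a group and bars the means. Upk3b is highest at 310 FPKM with DMSO and 253 with MEHP, and Muc16 is lowest.

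The members together took 0.273% to 0.276% of the counts of a TM3 DMSO library and 0.242% to 0.245% of a TM3 MEHP library. Upk3b alone made up 39.1% to 40.3% of the member counts in TM3 DMSO and 36.0% to 36.6% in TM3 MEHP. In TM4 the members took 0.0425% to 0.0470% with DMSO and 0.0360% to 0.0396% with MEHP, almost all of it Msln and Bnc1.

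In the response to MEHP in TM3, the 5 members that passed moved by a log2 fold change of 0.30 to 0.53 in size, in groups that did not overlap. Over all genes 35.4% had TM3 groups that did not overlap. The median log2 fold change of the 10 members was -0.05, against 0.01 over all genes. None of the members changed as much as 2-fold in TM3, where 0.414% of all genes rose and 0.261% fell by that much.

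In TM4 the 3 measurable members fell without overlap of the groups, against 38.8% of all genes whose TM4 groups did not overlap. The difference between the lines in the response was tested directly, and 26.3% of all genes passed that test, 13.3% with the lower response in TM4 and 13.0% with the higher. For Msln the response in TM4 was -0.67 ± 0.08 relative to that in TM3 (log2, edgeR adjusted p = 1.03e-07). For Bnc1 the difference was -0.40 ± 0.08 (edgeR adjusted p = 0.000246). For Krt7 it was -1.33 ± 0.28 (edgeR adjusted p = 0.000539). For the other members, at most 5 counts in a TM4 library, the responses could not be compared at this depth.

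**Figure D3:**
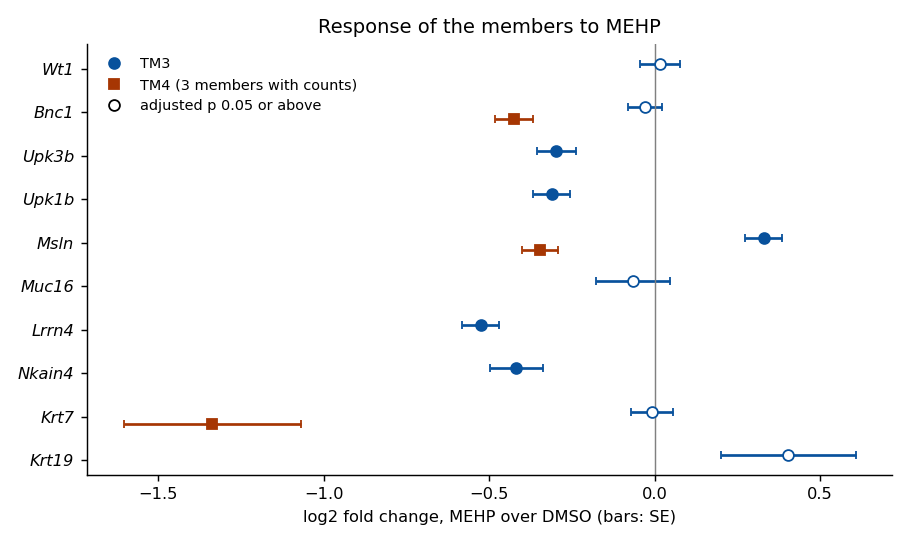
Log2 fold change of each member with MEHP over DMSO, with bars of 1 SE derived from the edgeR F statistic. Filled symbols passed at an adjusted p under 0.05. Among the filled symbols of TM3 (circles), 4 members are below 0 and Msln is above it. Krt19, at 0.40 in TM3, is an open symbol. In TM4 (squares) the 3 members with enough counts are below 0.

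Of 30 further genes known from the mesothelium, 22 passed the filter on low counts, and 19 of them were higher and 2 lower in TM3 than in TM4 under DMSO. Over all genes 42.0% were higher and 40.0% lower. Genes that passed the filter through TM3 alone had to differ, so the count describes the lines and is no test of the list. Efemp1, which codes for a fibulin of the extracellular matrix, had 158 ± 6.53 CPM in TM3 DMSO and 0 counts in TM4 DMSO. Krt14, a keratin of basal epithelial cells, had 23.0 ± 0.981 CPM and 0 counts. Both were thus without a count in the TM4 controls. Thrombomodulin (Thbd), an anticoagulant surface receptor, had 157 ± 2.11 against 0.0565 ± 0.0979 CPM. Podocalyxin (Podxl), a sialomucin of apical membranes, had 320 ± 6.20 against 0.387 ± 0.0515 CPM. The list was not high in TM3 throughout. Calb2, whose product calretinin is a standard mesothelial stain, had 1 count in 1 TM3 DMSO library and none in any other library. Itln1 had 1 count in 1 TM4 MEHP library and none elsewhere, and the transcription factor gene Tbx18 was higher in TM4, as the plot of the 30 genes shows.

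With MEHP in TM3, 5 of these 22 genes rose and 3 fell, with a median log2 fold change of 0.04, beside 9.04% of all genes that rose and 7.43% that fell. Prg4, which codes for the lubricant lubricin, went from 8.51 ± 1.04 to 21.1 ± 2.76 CPM (1.31 ± 0.14, edgeR adjusted p = 7.59e-08). Efemp1 went from 158 ± 6.53 to 248 ± 3.61 CPM (0.65 ± 0.05, edgeR adjusted p = 2.73e-09). Podxl went from 320 ± 6.20 to 262 ± 5.38 CPM (-0.29 ± 0.06, edgeR adjusted p = 0.000405). Krt8, a keratin of simple epithelia, went from 5.55 ± 0.976 to 3.54 ± 0.172 CPM (-0.65 ± 0.23, edgeR adjusted p = 0.0488). Without any 1 of the 6 TM3 libraries Krt8 no longer passed (edgeR adjusted p of 0.0667 to 0.276). Nor did it pass with a replicate block (edgeR adjusted p = 0.0522), without the filter (edgeR adjusted p = 0.0616) or in DESeq2 (adjusted p = 0.0761).

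**Figure D4:**
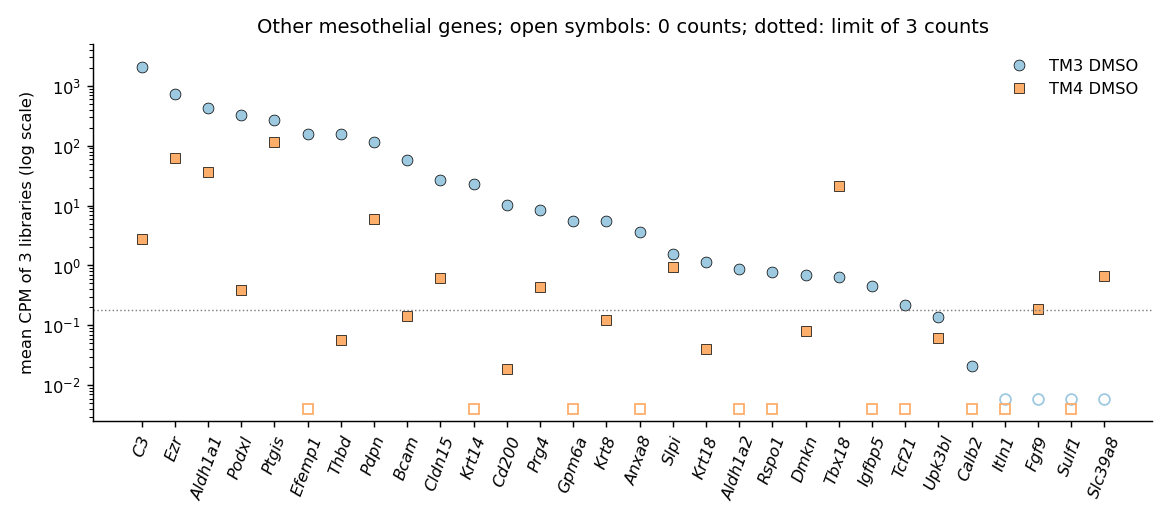
Mean CPM (log scale) of the 30 further mesothelial genes in TM3 DMSO (circles) and TM4 DMSO (squares), 3 libraries each, ordered by the TM3 mean; open symbols are 0 counts and the dotted line is the limit of 3 counts. Most circles lie above their square, Tbx18 the other way, and Calb2 and Itln1 lie at or below the limit in both lines.

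Among 14 genes for partners and modifiers of WT1, all of which passed the filter, 8 were higher and 5 lower in TM3 than in TM4 under DMSO, beside 42.0% and 40.0% of all genes. Apart from Wt1os, these included Cited2, a transcriptional co-regulator with a role in early gonad and adrenal development, at 295 ± 7.47 against 74.0 ± 4.03 CPM (2.00 ± 0.06, edgeR adjusted p = 9.73e-25). Pawr, whose product PAR-4 binds WT1, had 265 ± 10.9 against 67.6 ± 2.18 CPM (1.97 ± 0.05, edgeR adjusted p = 4.63e-25). Fhl2, a LIM domain co-activator, ran the other way at 2.54 ± 0.377 against 71.0 ± 5.56 CPM (-4.81 ± 0.12, edgeR adjusted p = 1.41e-26). All 14 genes had counts in TM3 DMSO and 12 had counts in TM4 DMSO, where Wt1os and Trp73 had none.

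With MEHP in TM3, 2 of the 14 rose and 2 fell, beside 9.04% and 7.43% of all genes, while Wt1 did not pass. Basp1, which codes for a co-repressor of WT1, went from 100.3 ± 6.80 to 141 ± 7.57 CPM (0.49 ± 0.06, edgeR adjusted p = 4.35e-07). Trp53, the p53 gene, went down by a log2 fold change of -0.27 ± 0.05 (edgeR adjusted p = 0.000562) and Cited2 by -0.23 ± 0.05 (edgeR adjusted p = 0.00220). Amer1 went up by 0.23 ± 0.08 (edgeR adjusted p = 0.0402). Amer1 did not pass without TM3 DMSO library 1 or 3 or TM3 MEHP library 1 or 2 (edgeR adjusted p of 0.109 to 0.174), nor in DESeq2 (adjusted p = 0.0592).

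Of 40 genes described as WT1 targets in other systems, 25 were tested. Between the lines under DMSO 11 were higher and 12 lower in TM3, close to the shares over all genes. Podxl, Wnt4 and the vitamin D receptor gene Vdr were among the higher ones. Wnt4, a signalling ligand of the developing ovary, had 90.6 ± 4.86 against 0.347 ± 0.0842 CPM, and Vdr 129 ± 3.47 against 0.798 ± 0.457. The chemokine gene Ccl5 was lower, at most 1 count in a TM3 DMSO library against 36.1 ± 0.916 CPM in TM4 DMSO.

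With MEHP in TM3, 6 of these 25 rose and 4 fell, beside 9.04% and 7.43% of all genes. The rises numbered 3 without TM3 DMSO library 2 or TM3 MEHP library 1 or 3. The falls numbered 1 without TM3 DMSO library 1 or TM3 MEHP library 2 or 3, and 2 without TM3 DMSO library 3. Ccnd2, the cyclin D2 gene, went from 551 ± 16.3 to 730.4 ± 12.8 CPM (0.41 ± 0.05, edgeR adjusted p = 5.86e-07). Spry1, a feedback inhibitor of receptor signalling, changed by 0.38 ± 0.10 (edgeR adjusted p = 0.00613). Egr1, an immediate early transcription factor gene, changed by -0.44 ± 0.12 (edgeR adjusted p = 0.0287), and the chemokine gene Cxcl10 by -0.61 ± 0.18 (edgeR adjusted p = 0.0196). Of these 4 genes, Ccnd2 passed without any 1 library. Spry1 did not pass without TM3 DMSO library 2 or TM3 MEHP library 3 (edgeR adjusted p of 0.0609 and 0.0696). Cxcl10 did not without TM3 DMSO library 1 or 2 or TM3 MEHP library 2 or 3 (edgeR adjusted p of 0.0625 to 0.165). Egr1 did not without any 1 of the 6 TM3 libraries, or without TM4 MEHP library 3 (edgeR adjusted p of 0.0575 to 0.107).

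Of 31 further keratin and intermediate filament genes 9 were tested, and 6 were higher and 1 lower in TM3 under DMSO, beside 42.0% and 40.0% of all genes. The summed level of the 31 genes was alike in the lines, 682 to 742 CPM in TM3 DMSO against 696 to 803 in TM4 DMSO. Most of it was vimentin (Vim), at a mean of 651 and 703 CPM. Krt15 at 24.2 ± 1.29 CPM and Krt23 at 4.83 ± 0.438 had 0 counts in TM4 DMSO, as had Krt14. Krt8 had 5.55 ± 0.976 CPM in TM3 DMSO and 1 to 4 counts a library in TM4 DMSO. The 1 lower gene was Krt80, at 4.01 ± 0.801 CPM in TM3 DMSO against 38.9 ± 0.435 in TM4 DMSO. Both keratins of simple epithelia and keratins of basal cells were thus detected in TM3. With MEHP in TM3 Krt15 went from 24.2 ± 1.29 to 16.1 ± 0.696 CPM (-0.59 ± 0.11, edgeR adjusted p = 0.000342), and Krt8 was the only other gene of the 9 to pass.

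Markers of other cell types were read beside these values. Of 24 general epithelial genes, summed levels were 8.85 to 12.8 CPM in TM3 DMSO, against 5.31 to 6.87 in TM4 DMSO, with 14 and 18 of the genes at no more than 3 counts in every library of the group. Cdh1, the E-cadherin gene, had at most 3 counts and Epcam at most 1 in any library. The keratins of TM3 were thus measured without those defining epithelial transcripts. Of 13 myoid and fibroblast genes, the sum was 17004 to 17652 CPM in TM3 DMSO, 16507 to 16785 in TM3 MEHP, 7787 to 8590 in TM4 DMSO and 5337 to 5752 in TM4 MEHP. This sum moved with line and treatment, and its part in the member results was not tested. Sums of 10 endothelial, 10 leukocyte and 10 germ cell genes were at most 33.1 CPM in any library.

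The labelled cell types were checked in the same way. Of 15 Leydig genes 8 were tested, and 6 were higher and 0 lower in TM3 than in TM4 under DMSO. Over all genes 42.0% were higher and 40.0% lower. Their sum was 1036 to 1073 CPM in TM3 DMSO against 318 to 340 in TM4 DMSO. Among the higher ones were Pdgfra at 627 ± 15.4 against 119 ± 6.98 CPM and Igf1 at 144 ± 0.848 against 12.3 ± 0.705, which other mesenchymal cells also express. The defining genes of steroid synthesis and its control were low. In TM3 Lhcgr, Hsd3b1 and Hsd3b6 had 0 counts in every library, Cyp17a1 had at most 3 and Cyp11a1 at most 6. Star, which moves cholesterol into mitochondria, had 94 to 135 counts in the TM3 controls and 116 to 134 in those of TM4. Of 22 Sertoli genes 15 were tested, with 7 higher and 7 lower in TM3 under DMSO, near the shares over all genes. The sum of the 22 was 858 to 909 CPM in TM3 DMSO against 681 to 720 in TM4 DMSO. Among them Fshr and Dmrt1 had 0 counts in every library of TM4. Sox9 had 26 to 54 counts in TM4 DMSO and 6 in each TM3 DMSO library. Gata4, shared by the somatic cells of the gonad, had 803 to 922 counts in TM4 DMSO and 577 to 592 in TM3 DMSO. Wt1, a Sertoli cell marker in the testis, was thus in the line labelled Leydig and at the limit of detection in the line labelled Sertoli.

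The nearest protein-coding gene on each side of each member was read to see whether whole stretches differed between the lines. Of these 20 neighbours 13 were tested, and 8 were higher and 4 lower in TM3 under DMSO, beside 42.0% and 40.0% of all genes. Their median log2 ratio was 0.58, against 0.01 over all genes. At least 2-fold, 4 were higher and 3 lower, beside 26.5% and 21.2% of all genes. B4galt4, a galactosyltransferase gene 4.13 kb from Upk1b, had 91.6 ± 4.43 CPM in TM3 DMSO against 0.0631 ± 0.0632 in TM4 DMSO. Krt15 and Krt9, on either side of Krt19, had 24.2 ± 1.29 and 1.40 ± 0.320 CPM in TM3 DMSO and 0 counts in TM4 DMSO. Them7, 50.7 kb after Wt1, had 2.64 ± 0.639 against 0.0399 ± 0.0347 CPM. These 4, like the member beside them, were higher in TM3, and they entered the test only through TM3. Others did not follow. Krt80, 40.9 kb before Krt7, had 4.01 ± 0.801 CPM in TM3 DMSO against 38.9 ± 0.435 in TM4 DMSO, and Sh3gl3 after Bnc1 had 0 counts in TM3 DMSO and 6.64 ± 0.519 CPM in TM4 DMSO. Upk3bl, 8.01 kb from Upk3b, had at most 6 counts in any library. Of the 13 neighbours, Crls1 and Krt15 passed in the response of TM3 to MEHP, a share close to the 16.5% of all genes. Crls1, the cardiolipin synthase gene 1.52 kb from Lrrn4, went from 104 ± 4.17 to 77.2 ± 1.01 CPM (-0.43 ± 0.06, edgeR adjusted p = 6.92e-06), and Lrrn4 fell as well. Krt15 fell, while Krt19 beside it stood at 0.40 and did not pass.

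**Figure D5:**
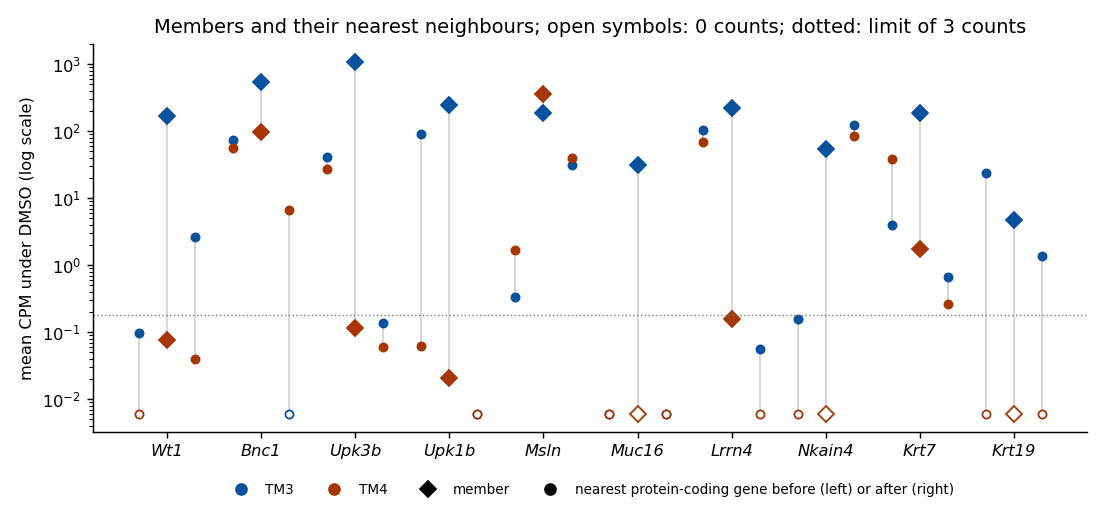
Mean CPM under DMSO (log scale, 3 libraries each) of the members (diamonds) and of the nearest protein-coding gene before and after each (circles), in TM3 and TM4 joined by a line; open symbols are 0 counts. B4galt4 beside Upk1b and Krt15 beside Krt19 differ like the member, while Dtx2 before Upk3b has TM3 and TM4 close together.

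The genes most like Wt1 were taken as the 5 named genes with the smallest root mean square difference from it in centred log2 CPM over the 12 libraries. They were Fmod at 0.29, Cd38 at 0.32, Zbtb7c at 0.35, Stk26 at 0.37 and Thbd at 0.40. Among the members the nearest were Lrrn4 at 0.52, Upk1b at 0.57 and Nkain4 at 0.73, and Msln was farthest at 5.26. The 5 genes had mean levels of 135 to 201 CPM in TM3 DMSO and at most 0.0565 CPM in TM4 DMSO. The measure follows mainly the gap between the lines, with which all 12 libraries are grouped. Fmod and Thbd rose with MEHP in TM3 (0.20 ± 0.06 and 0.28 ± 0.06, edgeR adjusted p of 0.0139 and 0.00172), where Wt1 stood at 0.02.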

How the data were processed

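Polyadenylated RNA of 12 libraries was sequenced in paired reads of 150 bases, as the labels' protocols state. Raw counts, 1 table for all genes and libraries, were deposited by the authors with coordinates and gene model lengths. The submitters' processing notes name featureCounts 1.5.0-p3, HISAT2 2.0.5 and StringTie 1.3.3b, besides edgeR and DESeq2 1.20.0, with mm10. The sources used here do not give counting options or strand, and values of overlapping and antisense genes are therefore uncertain.

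Groups were taken from the sample titles. From the counts, edgeR 4.0.16 in R 4.3.3 (TMM factors, filterByExpr, robust quasi-likelihood F-test) was run in 1 fit over 12 libraries with group as the only term. It had 8 residual degrees of freedom, a biological coefficient of variation of 6.00% and 15700 genes tested, and 24780 genes had no count. A call needed a Benjamini-Hochberg adjusted p under 0.05 over all genes tested. CPM and FPKM were computed here. The SE of a log2 fold change was derived here as its size divided by the square root of the F statistic. Ratios between lines used summed counts, with exact binomial intervals at 95%. The procedure was also run on simulated counts for the response in TM3. The changes simulated were larger than those of the members that passed in TM3, so recovery of changes of that size was not tested.

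The members and gene lists were chosen with earlier results of these data known. The text names all members and, from each list and contrast, up to 4 genes that passed with the largest change and at least 2 CPM in the higher group. It also names the nearest protein-coding neighbours and the 5 genes most like Wt1. Calb2, Itln1, Tbx18, Vim and the markers of cell types were named outside this rule after their values were seen.

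Alternatives were upper-quartile and RLE factors, a fit without a filter, a stricter filter (1 CPM in 3 libraries), DESeq2 1.42.0, limma-voom (limma 3.58.1), only the libraries compared, a replicate block, each library left out and a threshold of 0.01.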

Additional observations from a re-analysis of the deposited data

Results flagged for a closer look

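Msln, Bnc1 and Krt7 drew attention because their responses to MEHP differed between TM3 and TM4 in the test of the difference itself. The response in TM4 minus that in TM3 was -0.67 for Msln, -0.40 for Bnc1 and -1.33 for Krt7, each as a log2 value. For Msln all 3 MEHP libraries were above the DMSO libraries in TM3 and below them in TM4. With each library left out in turn, the difference ran from -0.74 to -0.64 for Msln, from -0.46 to -0.35 for Bnc1 and from -1.59 to -0.92 for Krt7. In each case the highest adjusted p was 0.0211, for Krt7 (edgeR quasi-likelihood test). With 3 libraries a group, no group was tested for single libraries that stand apart.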

How the results depend on the processing

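Of 333 alternative values for the members 328 kept their direction and their side of the threshold, and the 5 others were changes of sign among members that did not pass. These came from leaving out 1 library. Wt1 went from 0.02 to values of -0.0023 to 0.053, Muc16 from -0.07 to values of -0.14 to 0.094, and Krt7 in TM3 from -0.01 to values of -0.029 to 0.021, among them 0.0036 and 0.00098. The cause was not tested. The counts of members that changed stayed at 5 in TM3, 3 in TM4 and 3 for the difference of responses in every alternative run.

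At a threshold of 0.01 the genes changed by MEHP numbered 1492 in TM3 (2585 before) and 3220 in TM4 (4856 before), and 2588 (4134 before) differed in response. The genes of the 6 lists outside the members that changed in TM3 numbered 16 at that threshold against 26. With each library left out in turn, the counts were 1742 to 2949 in TM3 and 3745 to 4900 in TM4. For the difference they were 3458 to 4388 and for the lists 17 to 28, both lowest without TM3 DMSO library 1. A stricter threshold calls fewer genes by construction. The summed level of the members in TM3 DMSO was 2753 CPM and 2791 with RLE factors, which shifts every gene of a library alike.

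Same-numbered libraries of TM3 had correlations of 0.0045 to 0.029, against -0.034 to 0.017 for libraries of different number. In TM4 they ran from 0.028 to 0.12, each above those of different number (-0.12 to 0.0067). These correlations were small, and the main fit did not pair the samples by replicate number. Pairing within TM4 was not modelled. With a replicate block, shared by both lines, 2827 genes changed in TM3 and 5029 in TM4, and no member call changed. Of the other genes named for their response, Krt8 lost its call. Members at 5 counts or fewer in TM4 cannot show a response there at this depth.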

Other observations

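Relatives of the members were not all higher in TM3. Of 12 paralogues outside the lists above 6 were tested, with 2 higher and 3 lower in TM3 under DMSO, near the 42.0% and 40.0% of all genes. Bnc2, the other basonuclin gene, had 75.7 ± 12.3 CPM in TM3 DMSO against 24.9 ± 1.13 in TM4 DMSO (log2 ratio 1.61 ± 0.09, edgeR adjusted p = 4.06e-15). Nkain1 ran the other way, at 4.36 ± 0.326 against 26.2 ± 1.86 CPM (-2.59 ± 0.12, edgeR adjusted p = 2.86e-19), where its relative Nkain4 had no count in TM4. None of the 6 passed in the response of TM3 to MEHP, where 16.5% of all genes passed.

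Of 30 other uroplakin and tetraspanin genes 22 were tested, with 10 higher and 11 lower in TM3 under DMSO, near the shares over all genes. Tspan6 had 14.7 ± 0.684 CPM in TM3 DMSO and 0 counts in TM4 DMSO. Tspan7 at 46.2 ± 3.09, Tspan13 at 36.5 ± 1.31 and Tspan11 at 12.6 ± 1.66 CPM in TM4 DMSO had 0 counts in TM3 DMSO. Tetraspanin genes were thus split between the lines. The bladder uroplakin gene Upk2 had 0 counts in every library and Upk3a at most 1, and both were looked up after the data were seen. With MEHP in TM3, 4 of the 22 fell and 0 rose, Upk1b not counted, beside 7.43% and 9.04% of all genes. In a fit of only the TM3 libraries 7 fell, where 3570 genes were called in all against 2585. Cd9 changed by -0.31 ± 0.06, Cd82 by -0.25 ± 0.06 and Cd63 by -0.24 ± 0.06 (log2, edgeR adjusted p of 0.000360, 0.00206 and 0.00222). Tspan4 changed by -0.18 ± 0.06 (edgeR adjusted p = 0.0396) and did not pass without TM3 DMSO library 1 or 3 or any 1 TM3 MEHP library (edgeR adjusted p of 0.0711 to 0.201).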
